A study of Mus musculus with 6 samples.

Results

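The 37 enzymes described here take part in the oxidation of fuel, most of them in mitochondria: 19 of the pyruvate dehydrogenase complex and the tricarboxylic acid (TCA) cycle, and 18 of fatty acid oxidation. They were taken by name from a list, drawn up with earlier results of these data known, and each of the 37 names stood on 1 of the 38924 rows of the deposited table. RNA from bone marrow cells of C57BL/6 mice had been sequenced as 6 libraries. The mice had been transplanted with mouse marrow transduced with GFP alone (mock, 4 weeks after transplantation, 2 libraries) or with Evi1 and GFP. Evi1 libraries were made at 4 weeks (preleukemia, 2 libraries) and at 6 months (leukemia, 2 libraries). Evi1, encoded at the Mecom locus, is a zinc finger transcription factor of blood stem cells whose overexpression can drive myeloid leukemia. The cells of each group had been sorted for GFP, which marks transduced cells, for c-kit, a receptor of stem and progenitor cells, and for absence of lineage markers (Lin-). No GFP group at 6 months was analysed here, so time after transplantation and leukemia cannot be told apart. Whether a group's libraries stem from separate mice or from pooled mice is not stated in the labels, so p-values measure only the spread among these samples, and that spread may be technical. The comparisons of preleukemia and of leukemia with mock share the mock libraries.

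Values are RPKM, read numbers scaled to transcript length and library total, and library totals, worked out from the step size of the low values, ran from 16923300 to 21641340 reads. The 37 enzymes rested on 130 to 12157 implied reads per library. Mecom, the gene that was overexpressed, stood at 0.774 and 0.805 RPKM in mock, 78.0 and 80.1 in preleukemia, and in leukemia 61.7 and 71.5, so its level followed the labels. Kit, which encodes c-kit, ranged from 46.8 to 69.2 RPKM over the 6 libraries. Of lineage genes, Cd3e and Ms4a1 were near 0, whereas Itgam, which encodes a myeloid integrin, stood at 4.66 and 4.77 RPKM in mock, 37.1 and 53.2 in preleukemia, and in leukemia 13.7 and 21.7. In bulk samples such as these, fewer cells of a type and less RNA per cell cannot be told apart.

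The pyruvate dehydrogenase complex turns pyruvate into acetyl-CoA, which the TCA cycle oxidizes to carbon dioxide, passing electrons to NAD and FAD. Long-chain fatty acids enter mitochondria through the carnitine shuttle and are shortened by repeated dehydrogenation, hydration, oxidation and thiolysis, which yields acetyl-CoA for the same cycle. Electrons of the acyl-CoA dehydrogenases pass to the respiratory chain through electron transfer flavoprotein (ETF) and its dehydrogenase. Blood stem cells are known for reliance on glycolysis, and fatty acid oxidation has been linked to their maintenance.

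Promoters of 4 enzymes on which the results turn are shown: Idh1, which differed most in preleukemia, Etfb and Etfa, the partner subunits of ETF, and Dlst, which fell in both comparisons with mock. They run from 250 bases before to 50 bases after the RefSeq start (build GRCm38.p6), 5′ to 3′ on the strand of the gene. Lower case is used throughout, except that capitals mark a match to 1 of 3 motifs searched on both strands.
Idh1 (chr1:65186430-65186729, minus strand): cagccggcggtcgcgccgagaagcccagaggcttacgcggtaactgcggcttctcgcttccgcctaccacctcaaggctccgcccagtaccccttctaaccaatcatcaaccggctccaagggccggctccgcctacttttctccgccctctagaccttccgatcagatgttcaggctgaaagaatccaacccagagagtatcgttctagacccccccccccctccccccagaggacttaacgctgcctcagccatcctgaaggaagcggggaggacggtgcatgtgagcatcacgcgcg
Etfb (chr7:43443822-43444121, plus strand): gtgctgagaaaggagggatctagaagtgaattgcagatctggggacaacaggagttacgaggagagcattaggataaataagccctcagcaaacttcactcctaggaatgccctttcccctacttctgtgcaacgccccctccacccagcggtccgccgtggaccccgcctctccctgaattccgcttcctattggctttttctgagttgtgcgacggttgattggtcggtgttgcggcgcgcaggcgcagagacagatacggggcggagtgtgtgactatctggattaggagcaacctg
Etfa (chr9:55512194-55512493, minus strand): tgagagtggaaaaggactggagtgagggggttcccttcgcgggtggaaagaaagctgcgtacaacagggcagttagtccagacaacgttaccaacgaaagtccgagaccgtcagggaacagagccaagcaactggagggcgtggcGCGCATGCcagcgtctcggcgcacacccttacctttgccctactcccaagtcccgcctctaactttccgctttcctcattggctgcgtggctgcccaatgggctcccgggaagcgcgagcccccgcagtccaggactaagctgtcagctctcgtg
Dlst (chr12:85110583-85110882, plus strand): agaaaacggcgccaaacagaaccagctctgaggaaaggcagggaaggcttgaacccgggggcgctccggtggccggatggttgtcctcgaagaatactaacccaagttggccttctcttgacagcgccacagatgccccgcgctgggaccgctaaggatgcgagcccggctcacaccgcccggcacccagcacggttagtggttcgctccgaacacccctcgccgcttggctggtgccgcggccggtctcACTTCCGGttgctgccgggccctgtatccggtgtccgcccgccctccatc
The motifs were TCAAGGTCA for the estrogen-related receptors, GCATGCGC for NRF1 and CCGGAAGT for ETS factors including GABP, all of them known regulators of mitochondrial genes. RefSeq promoters were found for 34 of the 37 enzymes. TCAAGGTCA was in 0 of the 34 and in 0.423% of all 32851 promoters. GCATGCGC was in promoters of 4 of the 34 (Ogdh, Acadm, Etfa and Etfdh, 11.8%), against 2.71% of all promoters and 6.54% of the 8098 tested genes with a promoter. CCGGAAGT was in 3 of the 34 (Dlst, Cpt2 and Slc25a20, 8.82%), against 3.89% of all promoters and 10.1% of the tested genes. In the sequences above, Etfa carries GCATGCGC on the opposite strand, Dlst carries CCGGAAGT on the opposite strand at its start, and Idh1 and Etfb carry none of the 3. A match is a description of these letters and not evidence of binding. On GRCm38, GENCODE places the gene Idh1 at chr1:65158616-65186500 (minus strand), Etfb at chr7:43444083-43457800 (plus), Etfa at chr9:55454508-55512243 (minus) and Dlst at chr12:85110833-85134845 (plus), so each window holds the annotated start of its gene.

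Among the TCA cycle enzymes, preleukemia differed from mock mainly in Idh1, which was 2.4 times as abundant, while Dlst and Pdha1 were lower. In leukemia 7 of the 19 were lower than in mock, namely 3 of the 4 pyruvate dehydrogenase subunits and the enzymes Fh1, Idh3a, Dlst and Mdh2, and 1 (Idh1) was higher. Between leukemia and preleukemia 1 of the 19, Idh1, passed the test, and it was lower. Calls rest on limma's moderated test of log2(RPKM + 1), with Benjamini-Hochberg adjusted p under 0.05 over 10958 genes. The spread is pooled over all groups. Leaving out a library of the group not compared, here and below, therefore changes that spread but not the difference. For preleukemia against mock, 13.5% of all tested genes were called higher and 6.02% lower. For leukemia against mock the shares were 12.1% and 13.5%, and for leukemia against preleukemia 5.27% and 13%. Median log2 differences of the 19 were 0.00, -0.21 and -0.23 in these 3 comparisons, beside 0.05, -0.04 and -0.09 over all tested genes. Without mock library 1 the preleukemia calls numbered 6, and without any 1 of the preleukemia or leukemia libraries 1. The leukemia calls against mock numbered 8 with all libraries, 1 without leukemia library 1, 0 without leukemia library 2 and 4 without preleukemia library 1 or 2. Under quantile normalization the medians of the 19 were -0.09, -0.18 and -0.10, those of all genes -0.03, 0.00 and 0.03, and Idh2 (0.40 higher, limma adjusted p = 0.0406) took the place of Idh1 as the 1 call between leukemia and preleukemia. The balance of calls over all genes also depended on scaling: preleukemia against mock gave 1480 higher and 660 lower, but 1180 and 1052 after quantile normalization. Leukemia against preleukemia gave 578 higher and 1428 lower, but 835 and 1057 with TMM-like scaling and 966 and 937 after quantile normalization.

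Groups were also compared by whether their libraries overlapped. In preleukemia 3 of the 19 TCA cycle enzymes lay above both mock libraries and 7 below, where all tested genes gave 37.2% above and 25.5% below. In leukemia 2 lay above both mock libraries and 10 below, against 30.0% and 35.5% of all tested genes. Set against preleukemia, 1 lay above in leukemia and 14 below, against 24.7% and 46.0%. Summed over the 19 enzymes, the level was 715 and 614 RPKM in mock, 664 and 636 in preleukemia, and in leukemia 580 and 537. Both leukemia sums were below the other 4. The sum over all rows was also lowest in leukemia, at 224042 and 221911 RPKM. It was 237367 and 232409 in mock and 251544 and 249287 in preleukemia. Summed levels here and below were not scaled for this, so part of such a difference may be shared by all genes.

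**Figure D1:**
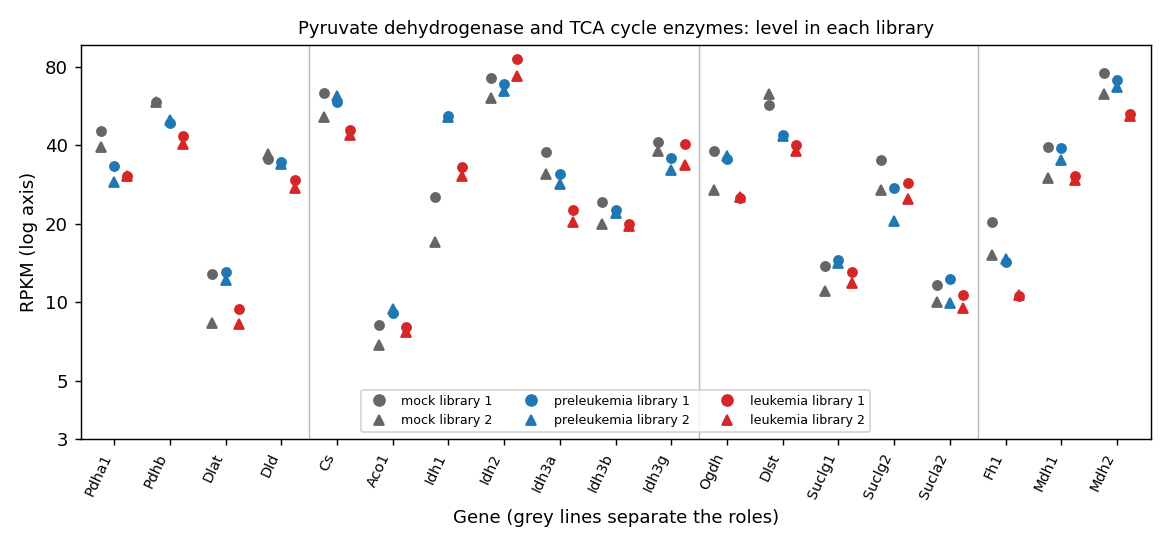
Level of the 19 pyruvate dehydrogenase and TCA cycle enzymes in each of the 6 libraries, in RPKM on a log axis, with colour for the group and marker shape for the library. The preleukemia points of Idh1 (51.7 and 51.3) lie above the other 4, and both leukemia points of Fh1 (10.6 and 10.7) and Idh3a (22.5 and 20.2) lie below the other 4.

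The pyruvate dehydrogenase complex has an E1 component built from Pdha1 and Pdhb, an E2 core of Dlat and an E3 component, Dld, which it shares with other 2-oxoacid dehydrogenases. Pdhb stood at 58.6 and 58.5 RPKM in mock, 48.6 and 50.0 in preleukemia, and in leukemia 43.3 and 40.3. The 3 groups did not overlap, and leukemia was lowest. The difference between leukemia and mock was -0.48 on the log2(RPKM + 1) scale (SE 0.09, limma adjusted p = 0.0111). Pdha1, the subunit through which pyruvate dehydrogenase kinases switch the complex off, was at 45.2 and 39.4 RPKM in mock, 33.2 and 28.9 in preleukemia, and in leukemia 30.5 and 30.4. Both mock libraries were above the other 4. Its log2 difference from mock was -0.43 in preleukemia (SE 0.11, limma adjusted p = 0.0410) and -0.46 in leukemia (SE 0.11, limma adjusted p = 0.0284). Of the exon bases of Pdha1, 16.1% also belong to Map3k15 on the opposite strand, which reached at most 2.28 RPKM. Dld gave 35.3 and 37.1 RPKM in mock, 34.6 and 33.9 in preleukemia, and in leukemia 29.5 and 27.3, with both leukemia libraries below the other 4 (called lower than mock). Dlat, at 8.23 to 13.1 RPKM, passed the test in none of the 3 comparisons, and its mock libraries (12.8 and 8.34) spanned nearly that whole range. For Pdhb the adjusted p was 0.0550 without leukemia library 1 and 0.0956 without library 2. Pdha1 lost its preleukemia call without any 1 library except mock library 2 (0.0577 to 0.256) and its leukemia call without any 1 of the preleukemia or leukemia libraries (0.0533 to 0.143). Dld lost its call without mock library 2 (adjusted p = 0.0533) and without any 1 of the preleukemia or leukemia libraries, up to 0.236 without leukemia library 2, and under TMM-like scaling (0.0609).

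Citrate synthase (Cs) opens the cycle, aconitases isomerize citrate and isocitrate dehydrogenases oxidize isocitrate. Idh1, the cytosolic NADP-dependent isocitrate dehydrogenase, was the enzyme of the 37 that differed most between preleukemia and mock. It stood at 25.3 and 17.0 RPKM in mock (21.1 ± 5.90, mean ± SD, n = 2), 51.7 and 51.3 in preleukemia (51.5 ± 0.246, n = 2), and in leukemia 33.1 and 30.5 (31.8 ± 1.85, n = 2). The groups did not overlap, with preleukemia highest and leukemia between. Preleukemia exceeded mock by 1.27 on the log2(RPKM + 1) scale (SE 0.18, limma adjusted p = 0.00535), and this call held without each library in turn (highest adjusted p = 0.0492). Leukemia exceeded mock by 0.59 (SE 0.18, limma adjusted p = 0.0497) and was below preleukemia, with a difference of -0.68 (SE 0.18, limma adjusted p = 0.0411). The leukemia call was lost without any 1 of the preleukemia or leukemia libraries (adjusted p 0.0957 to 0.199), and the difference was 0.32 without mock library 2 and 0.87 without mock library 1. The fall from preleukemia was lost without any 1 of the same 4 (0.147 to 0.192), and under TMM-like (0.0648) and quantile (0.0715) scaling.

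Idh2, the mitochondrial counterpart of Idh1 that also uses NADP, did not follow it. Its levels were 72.4 and 60.8 RPKM in mock, 68.6 and 64.5 in preleukemia, and in leukemia 85.7 and 73.9. Leukemia libraries were above the other 4, and the difference from mock was 0.26 (limma adjusted p = 0.170). The ratio of Idh1 to Idh2 within a library was 0.350 and 0.279 in mock, 0.753 and 0.795 in preleukemia, and in leukemia 0.387 and 0.413. Isocitrate dehydrogenase 3, the NAD-dependent enzyme of the cycle itself, is made of the catalytic subunit Idh3a with Idh3b and Idh3g. Idh3a was at 37.8 and 31.0 RPKM in mock, 31.0 and 28.4 in preleukemia, and in leukemia 22.5 and 20.2, and both leukemia libraries were below the other 4. It was lower in leukemia than in mock, with a difference of -0.66 (SE 0.13, limma adjusted p = 0.0122; 0.0512 without leukemia library 1 and 0.0897 without library 2). Against preleukemia the difference was -0.46, with an adjusted p of 0.0502 by limma that missed the threshold. Idh3b (19.6 to 24.2 RPKM) and Idh3g (32.2 to 41.1 RPKM) passed no test. The ratio of Idh3a to Idh3b was 1.56 in each mock library, 1.37 and 1.29 in preleukemia, and in leukemia 1.13 and 1.04. That of Idh3a to Idh3g was 0.920 and 0.819, 0.866 and 0.884, and 0.557 and 0.605, so the catalytic subunit was lowest relative to each partner in leukemia. Cs stood at 63.2 and 51.3 RPKM in mock, 58.8 and 61.9 in preleukemia, and in leukemia 45.8 and 43.7, and its differences of -0.34 from mock (limma adjusted p = 0.0793) and -0.42 from preleukemia (0.0535) were not called. Aco1, the cytosolic aconitase that doubles as an iron sensor, was at 6.86 to 9.41 RPKM and was not called.

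The 2-oxoglutarate dehydrogenase complex is built from Ogdh, Dlst and Dld, and succinyl-CoA ligase from Suclg1 with either Suclg2 or Sucla2. Dlst, the E2 core, was at 57.0 and 62.9 RPKM in mock (60.0 ± 4.21, n = 2), 43.7 and 43.5 in preleukemia (43.6 ± 0.171, n = 2), and in leukemia 40.1 and 38.0 (39.1 ± 1.50, n = 2). The mock libraries were above the other 4. Its log2 difference from mock was -0.45 in preleukemia (SE 0.10, limma adjusted p = 0.0215) and -0.60 in leukemia (SE 0.10, limma adjusted p = 0.00615). Of these, the preleukemia call was lost without preleukemia library 1 (0.121) or 2 (0.149) and without leukemia library 1 (0.0525) or 2 (0.0523), and the leukemia call without leukemia library 2 (0.0566). Ogdh, the E1 component, had 38.1 and 26.9 RPKM in mock, 35.4 and 36.3 in preleukemia, and in leukemia 25.0 and 25.3, and was not called. Suclg1, Suclg2 and Sucla2 were at 9.47 to 35.0 RPKM and passed no test. Relative to Sucla2, the subunit of the ATP-forming ligase, Suclg2 of the GTP-forming ligase stood at 3.02 and 2.68 in mock, 2.23 and 2.07 in preleukemia, and in leukemia 2.68 and 2.64.

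Fumarase (Fh1) hydrates fumarate, and malate dehydrogenase regenerates oxaloacetate in mitochondria (Mdh2) or interconverts it with malate in the cytosol (Mdh1). Fh1 stood at 20.3 and 15.1 RPKM in mock (17.7 ± 3.64, n = 2), 14.2 and 14.6 in preleukemia (14.4 ± 0.262, n = 2), and in leukemia 10.6 and 10.7 (10.6 ± 0.0408, n = 2). The 3 groups did not overlap. Its difference between leukemia and mock, -0.67, was the largest fall among the 19 in that comparison (SE 0.14, limma adjusted p = 0.0177; 0.0916 without leukemia library 1 and 0.0956 without library 2). Mdh2 was at 76.0 and 62.7 RPKM in mock, 70.9 and 66.9 in preleukemia, and in leukemia 52.8 and 51.6. Its leukemia libraries were below the other 4, and it was called lower than mock, but it lost that call without any 1 library except mock library 2 (adjusted p 0.0672 to 0.207; the difference of -0.40 became -0.26 without mock library 1) and under TMM-like scaling (0.0574). Mdh1, at 29.3 to 39.3 RPKM, was not called. The ratio of Mdh1 to Mdh2 stayed between 0.478 and 0.579 in the 6 libraries.

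Fatty acid oxidation enzymes gave 0 calls of 18 between preleukemia and mock in limma, where 3 were higher and 1 lower at an unadjusted p under 0.05. In leukemia 5 of the 18 were lower than in mock (Etfb, Acaa2, Etfa, Slc25a20 and Hadhb) and 3 were lower than in preleukemia (Etfb, Cpt1a and Acaa2). Of all tested genes, 13.5% were called lower in leukemia than in mock and 13% lower than in preleukemia. None of the 18 was called higher in either comparison with all libraries (0 at an unadjusted p under 0.05 as well). Median log2 differences of the 18 were 0.07, -0.23 and -0.30 for preleukemia against mock, leukemia against mock and leukemia against preleukemia. After quantile normalization they were -0.01, -0.19 and -0.18, so that the sign of the preleukemia median was not kept. The preleukemia median over all tested genes changed sign as well, from 0.05 to -0.03. Without mock library 1 there were 4 preleukemia calls and without mock library 2 there was 1. Without mock library 1, Acadm (0.35, limma adjusted p = 0.0299), Cpt2 (0.95, 0.00406) and Decr1 (0.42, 0.0323) were called higher in leukemia than in mock, beside 4 called lower. Leukemia calls against mock numbered 2 without any 1 preleukemia or leukemia library and 8 without mock library 2, and calls against preleukemia numbered 1 without preleukemia library 1 or 2 or leukemia library 1. In each of these leukemia fits, calls over all genes moved in the same direction as those of the 18. Without overlap between libraries, 7 lay above and 3 below mock in preleukemia, 3 above and 10 below mock in leukemia, and 1 above and 12 below preleukemia in leukemia. The share of all tested genes in each class is the one given above for the TCA cycle enzymes. The summed level was 387 and 318 RPKM in mock, 390 and 384 in preleukemia, and in leukemia 269 and 274. Etfb alone gave 80.5 and 65.5 RPKM in mock, 91.9 and 98.8 in preleukemia, and in leukemia 34.7 and 37.4. The differences between these sums therefore rest in large part on 1 gene.

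**Figure D2:**
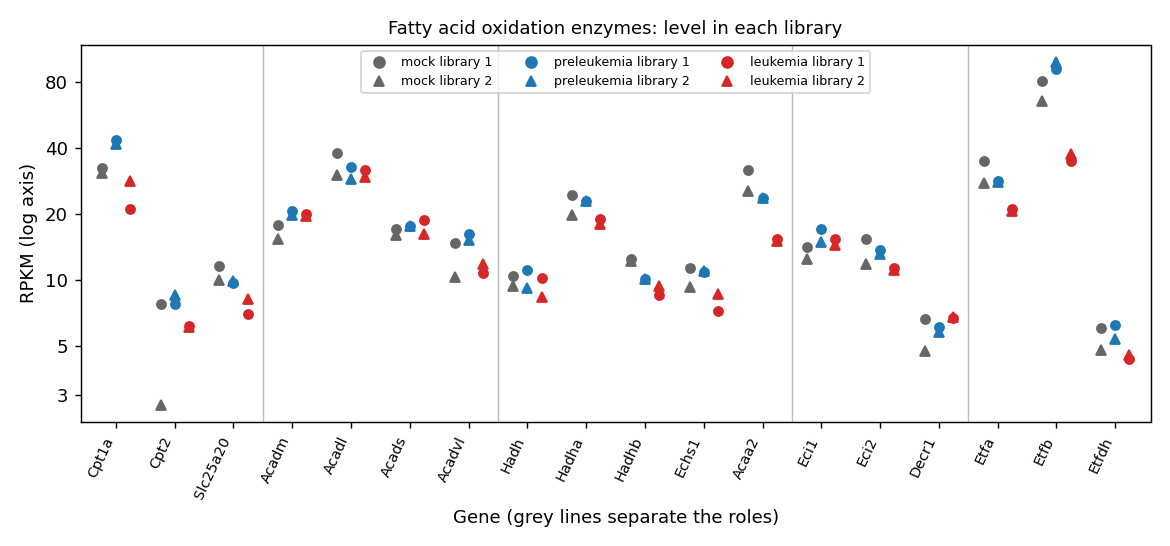
Level of the 18 fatty acid oxidation enzymes in each of the 6 libraries, in RPKM on a log axis, with colour for the group and marker shape for the library. The leukemia points of Etfb (34.7 and 37.4) and Acaa2 (15.3 and 15.0) lie below the other 4, and mock library 2 of Cpt2 (2.69) lies apart from mock library 1 (7.74).

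The electron transfer flavoprotein held the steepest change. Etfb, its beta subunit, stood at 80.5 and 65.5 RPKM in mock (73.0 ± 10.6, n = 2), 91.9 and 98.8 in preleukemia (95.4 ± 4.85, n = 2), and in leukemia 34.7 and 37.4 (36.1 ± 1.92, n = 2). The 3 groups did not overlap, with preleukemia highest and leukemia lowest. Leukemia was lower than mock, with a difference of -0.99 on the log2(RPKM + 1) scale (SE 0.12, limma adjusted p = 0.00265) and lower than preleukemia, with a difference of -1.38 (SE 0.12, limma adjusted p = 0.00200), the largest difference between any 2 groups among the 37 enzymes. Both calls held without each library in turn. Preleukemia exceeded mock by 0.39, which was not called (limma adjusted p = 0.0709; 0.0121 without mock library 1). GENCODE lists 53.0% of the exon bases of Etfb also in Gm45233, a gene model on the same strand with no row of its own in the table, so reads of the 2 cannot be told apart. Etfa, the alpha subunit, stood at 34.8 and 27.7 RPKM in mock, 28.3 and 28.0 in preleukemia, and in leukemia 21.1 and 20.5. Leukemia libraries were below the other 4, and leukemia was lower than mock, with a difference of -0.56 (SE 0.12, limma adjusted p = 0.0195), a call that was lost without any 1 of the preleukemia or leukemia libraries (0.0506 to 0.113). The ratio of Etfb to Etfa was 2.32 and 2.36 in mock, 3.25 and 3.53 in preleukemia, and in leukemia 1.65 and 1.82, so the subunits did not keep a fixed ratio. Etfdh, the membrane enzyme that passes electrons on to ubiquinone, was at 4.37 to 6.20 RPKM and was not called.

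**Figure D3:**
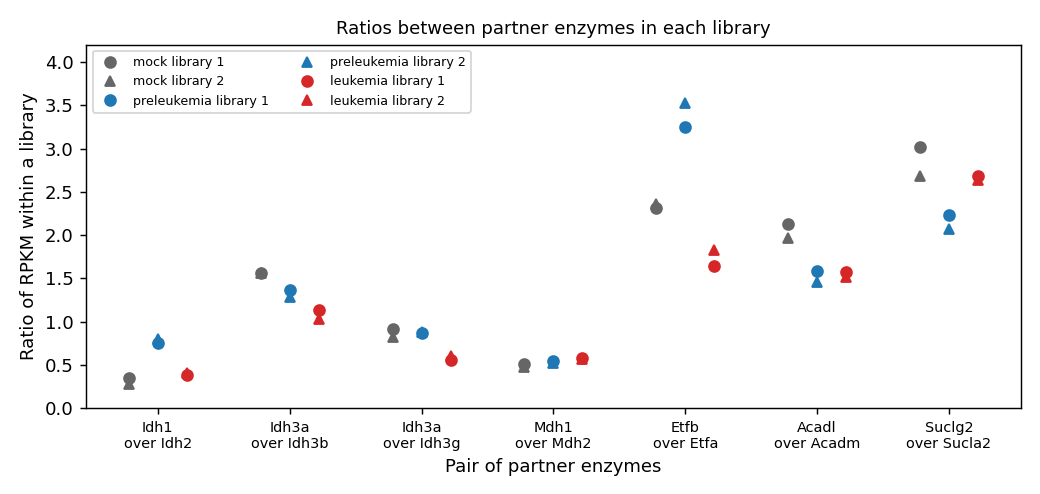
Ratio of RPKM between partner enzymes within each of the 6 libraries, with colour for the group and marker shape for the library. Idh1 over Idh2 (0.753 and 0.795) and Etfb over Etfa (3.25 and 3.53) are highest in preleukemia, and Idh3a over Idh3b (1.13 and 1.04) is lowest in leukemia.

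Of the enzymes that cut the chain, Acaa2, the thiolase of the mitochondrial matrix, stood at 31.8 and 25.5 RPKM in mock (28.7 ± 4.40, n = 2), 23.6 and 23.8 in preleukemia (23.7 ± 0.0868, n = 2), and in leukemia 15.3 and 15.0 (15.2 ± 0.202, n = 2). The 3 groups fell in order without overlap. Leukemia was lower than mock, with a difference of -0.87 (SE 0.12, limma adjusted p = 0.00395), which held without each library in turn, and lower than preleukemia, with a difference of -0.61 (SE 0.12, limma adjusted p = 0.0179), which was lost without any 1 of the 4 libraries compared (0.0983 to 0.127). Hadhb, the thiolase subunit of the trifunctional protein, was at 12.4 and 12.2 RPKM in mock, 10.1 and 10.1 in preleukemia, and in leukemia 8.52 and 9.41. Its groups did not overlap, and leukemia was lower than mock, with a difference of -0.42 (SE 0.10, limma adjusted p = 0.0286; 0.0740 to 0.183 without any 1 of the preleukemia or leukemia libraries). Hadha, the partner subunit that hydrates and oxidizes the chain, was at 17.9 to 24.4 RPKM. Neither it nor the short-chain enzymes Hadh (8.34 to 11.1 RPKM) and Echs1 (7.20 to 11.4 RPKM) was called.

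The carnitine shuttle runs through Cpt1a, the rate-setting palmitoyltransferase of the outer membrane, the carrier Slc25a20 and the inner enzyme Cpt2. Cpt1a stood at 32.6 and 30.8 RPKM in mock (31.7 ± 1.23, n = 2), 43.6 and 41.7 in preleukemia (42.6 ± 1.30, n = 2), and in leukemia 21.0 and 28.1. The groups did not overlap, with preleukemia highest and leukemia lowest. Leukemia was lower than preleukemia, with a difference of -0.78 (SE 0.14, limma adjusted p = 0.0135), which was lost without preleukemia library 1 (0.0877) or 2 (0.0905) or leukemia library 1 (0.0728). Preleukemia exceeded mock by 0.42, which was not called (limma adjusted p = 0.0847). Slc25a20 was at 11.5 and 9.96 RPKM in mock, 9.64 and 9.85 in preleukemia, and in leukemia 7.02 and 8.19, with leukemia lower than mock, with a difference of -0.45 (SE 0.13, limma adjusted p = 0.0409). That call held without mock library 2 and was lost without any other 1 library (0.0706 to 0.226), under TMM-like scaling (0.0552) and with the replicate block (0.0538). Cpt2 was at 7.74 RPKM in mock library 1 and 2.69 in mock library 2 (400 and 130 implied reads), 7.76 and 8.58 in preleukemia, and in leukemia 6.17 and 6.11. It differed more between the mock libraries than any other of the 37 and was not called (0.69 for preleukemia against mock, SE 0.36, limma adjusted p = 0.216). Without mock library 1 it was called higher than mock in preleukemia (1.31, limma adjusted p = 0.00220) and in leukemia (0.95, limma adjusted p = 0.00406), so its value depends on 1 library.

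None of the 4 acyl-CoA dehydrogenases, which begin each round according to chain length, was called in any comparison. Acadl stood at 28.9 to 37.8 RPKM, Acadm at 15.3 to 20.6, Acads at 16.0 to 18.7 and Acadvl at 10.3 to 16.2. Acadl relative to Acadm was 2.13 and 1.97 in mock, 1.59 and 1.46 in preleukemia, and in leukemia 1.58 and 1.51. Of the exon bases of Acadvl, 42.9% are shared with Dvl2 on the opposite strand, and the library kit by its name does not mark strand. The auxiliary enzymes for unsaturated chains, Eci1 (12.4 to 17.0 RPKM), Eci2 (11.1 to 15.4 RPKM) and Decr1 (4.76 to 6.76 RPKM), were not called either.

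**Figure D4:**
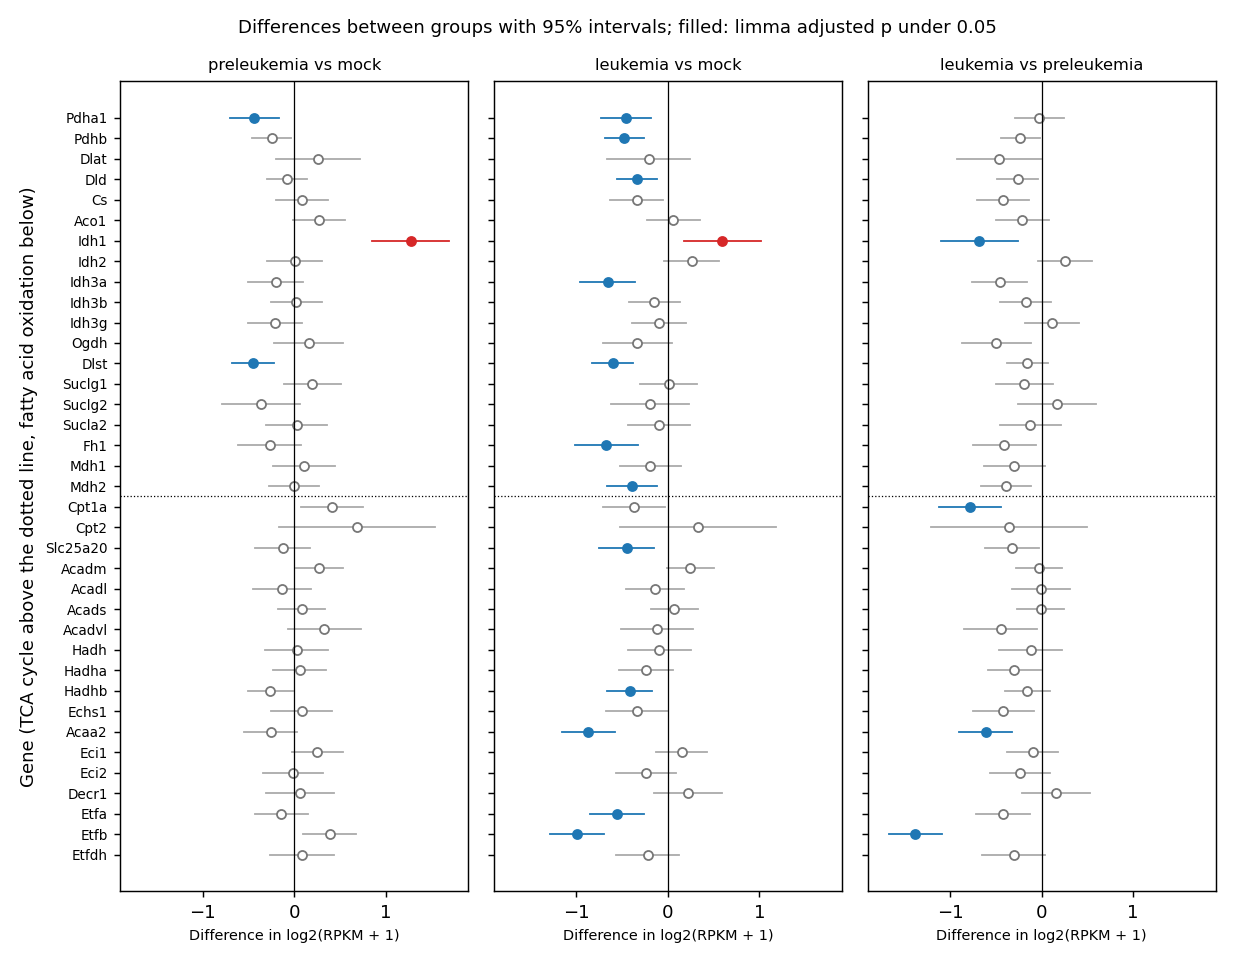
Difference in log2(RPKM + 1) between groups for each of the 37 enzymes, with 95% intervals from limma, 1 panel per comparison, and filled points for adjusted p under 0.05. Idh1 stands out in preleukemia against mock (1.27), and Etfb in both leukemia panels (-0.99 and -1.38).

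Across both pathways, the mean level was lowest in leukemia for 26 of the 37 enzymes, 13 of each pathway (70.3%, against 41.9% of all tested genes), and highest in preleukemia for 20 (54.1%, against 38.7%). It fell stepwise from mock through preleukemia to leukemia for 13, 7 of the TCA cycle and 6 of fatty acid oxidation (35.1%, against 22.8%). The mock libraries differed from each other in the same direction for nearly all members. Mock library 1 was above mock library 2 for 35 of the 37, all but Dld and Dlst, with a median log2 difference of 0.28. Over all tested genes library 1 was above for 58.9%, with a median difference of 0.07. In preleukemia library 1 was above for 26 of the 37 and in leukemia for 27. Leaving out a mock library changed the calls. Without mock library 1, preleukemia exceeded mock for Acadm, Acadvl, Cpt2 and Etfb of fatty acid oxidation and for Aco1, Dlat, Idh1, Ogdh and Suclg1 of the TCA cycle, where 22.7% of all tested genes were called higher. Without mock library 2, leukemia was below mock for 10 TCA cycle and 8 fatty acid oxidation enzymes, where 16.9% of all tested genes were called lower. Without mock library 1, leukemia was above mock for Acadm, Cpt2 and Decr1 as well as Idh1, where 17.4% of all tested genes were called higher. For leukemia against preleukemia, which uses neither mock mean, 9 TCA cycle and 8 fatty acid oxidation enzymes were called lower once either mock library was left out of the pooled spread. Calls over all genes rose in the same fits, from 1428 lower to 2404 without mock library 1 and 2410 without mock library 2 (each about 22% of the genes tested).

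**Figure D5:**
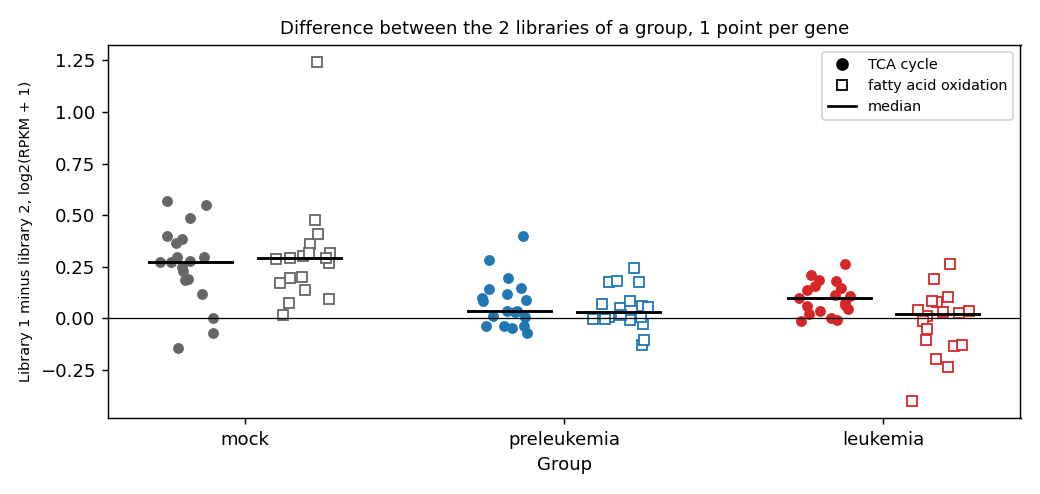
Difference between library 1 and library 2 of each group in log2(RPKM + 1), 1 point per enzyme, filled circles for the 19 TCA cycle and open squares for the 18 fatty acid oxidation enzymes, with bars at the medians. In mock 35 of the 37 points lie above 0 (medians 0.27 and 0.29), and the highest square is Cpt2.

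Markers of other cell types and of division moved with the groups, and their part in the differences above was not tested. Of all tested genes, 13.5% were called higher and 6.02% lower than mock in preleukemia, and 12.1% and 13.5% in leukemia. Erythroid markers (9 genes with a row) summed to 275 and 132 RPKM in mock, 175 and 114 in preleukemia, and in leukemia 27.7 and 35.8, and 6 of 7 tested were called lower in leukemia than in mock. Mock library 1, with the higher values of most of the 37 enzymes, also had the higher erythroid, proliferation, mast cell and basophil, and T and natural killer cell sums. It had the lower neutrophil, B-lymphoid, monocyte and macrophage, and stroma and endothelium sums. T and natural killer cell markers (7) gave 89.1 and 48.6 RPKM in mock, 67.1 and 67.8 in preleukemia, and in leukemia 7.07 and 14.9. Only 2 of these 7 reached 1 RPKM in 2 or more libraries and were tested, so this sum does not speak for all 7. Of the 7 stroma and endothelium markers, likewise, only 2 were tested. Alas2, the heme enzyme of erythroid cells, was listed at 0 in the 4 Evi1 libraries and at 0.0578 and 0.0206 RPKM in mock, under the worth of 3 reads on 1 kb, and was not tested. Neutrophil markers (10 genes) summed to 19.5 and 20.2 RPKM in mock, 3891 and 8326 in preleukemia, and in leukemia 416 and 734. Of the 10, 7 were called higher than mock in preleukemia and 3 in leukemia. For leukemia against mock their median log2 difference was 1.02, with a range of -0.96 to 5.72, so the sum does not speak for each marker. Proliferation genes (8) summed to 487 and 369 RPKM in mock, 408 and 401 in preleukemia, and in leukemia 362 and 305, with 2 of 8 called lower in leukemia than in mock. Mast cell and basophil markers (7) gave 172 and 121, 77.6 and 64.4, and 74.4 and 73.5 RPKM, and B-lymphoid markers (7) gave 41.3 and 43.7, 17.9 and 19.6, and 12.5 and 11.9 RPKM. Monocyte and macrophage markers (7) moved in both directions, with 2 higher and 2 lower in preleukemia and in leukemia against mock. Their summed level of 204 and 298 RPKM in mock, 397 and 380 in preleukemia, and in leukemia 457 and 487, was mostly F13a1, at 95.3 and 150 RPKM in mock and 340 and 364 in leukemia, while the chemokine receptor Ccr2 was at 11.9 ± 0.169 RPKM (SD, n = 2) in mock and at 3.22 to 3.67 in the 4 Evi1 libraries.

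Other genes around the TCA cycle (carriers, kinases and phosphatases of pyruvate dehydrogenase, aminotransferases and the like) were described from a fixed list. Of 28 tested of 33 listed, 3 were higher and 1 lower in preleukemia than in mock, 1 was higher and 2 lower in leukemia than in mock, and 0 were higher and 2 lower in leukemia than in preleukemia. Their median log2 differences were 0.08, -0.09 and -0.14. Got2, the mitochondrial aspartate aminotransferase, was lower than mock in preleukemia (-0.68, limma adjusted p = 0.0146) and leukemia (-0.69, 0.0104). Mpc1, a subunit of the mitochondrial pyruvate carrier (0.60, 0.0133), Slc25a11, the 2-oxoglutarate carrier (0.62, 0.0374), and Pdk3, a pyruvate dehydrogenase kinase (0.60, 0.0114), were higher in preleukemia than in mock. In leukemia Pdp2, a phosphatase that reactivates pyruvate dehydrogenase, was higher than mock (0.48, 0.0357) and the mitochondrial malic enzyme Me2 was lower (-0.48, 0.0337). Compared with preleukemia, Pdk2 (-0.67, 0.0436) and Pdk3 (-0.39, 0.0468) were lower. Without preleukemia library 1 or 2 the preleukemia calls of Got2 (adjusted p up to 0.123), Mpc1 (up to 0.0997) and Pdk3 (up to 0.0888) were lost, and without leukemia library 2 the leukemia call of Got2 (0.0750). The calls of Slc25a11 (up to 0.184), Pdk2 (0.225) and Pdk3 against preleukemia (0.269) were lost without any 1 of the 4 Evi1 libraries, as were those of Pdp2 (0.179) and Me2 (0.206), which were also lost without mock library 2 and mock library 1.

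Other genes of fatty acid handling, which include activation, peroxisomal oxidation and the acetyl-CoA carboxylases, formed a further list. Of 33 tested of 41 listed, 10 were higher and 1 lower in preleukemia than in mock, 3 were higher and 3 lower in leukemia than in mock, and 2 were higher and 8 lower in leukemia than in preleukemia. Their medians were 0.25, 0.06 and -0.25. Abcd2, a peroxisomal importer of fatty acyl-CoA, stood at 6.01 and 6.29 RPKM in mock, 15.4 and 13.5 in preleukemia, and in leukemia 5.92 and 6.74. The preleukemia libraries were above the other 4 (1.11 against mock, limma adjusted p = 0.00276, and -1.07 for leukemia against preleukemia, 0.00329). Acsl4, which activates arachidonic acid, was at 10.6 and 12.9 RPKM in mock, 5.34 and 5.71 in preleukemia, and in leukemia 4.10 and 4.28, with mock above the other 4 (-0.96, limma adjusted p = 0.00492, and -1.29, 0.00129, against mock). Acox3, a peroxisomal acyl-CoA oxidase, was at 5.67 and 6.80 RPKM in mock, 9.96 and 9.19 in preleukemia, and in leukemia 15.0 and 13.9, with leukemia highest (1.10 against mock, limma adjusted p = 0.00190). These 5 calls held without each library in turn. Others did not: in preleukemia against mock Acsl1 (0.69, limma adjusted p = 0.0311) and Crot (0.65, 0.0369) were higher. Both were lost without mock library 2 or preleukemia library 1 or 2 (up to 0.203 and 0.184), and Crot also without leukemia library 1 or 2. In leukemia, Abcd3 was lower than mock (-0.54, 0.0417) and than preleukemia (-0.80, 0.0153). Ehhadh was lower than mock (-0.50, 0.0493), and Acad11 (-0.69, 0.0212) and Acacb (-0.70, 0.0246) were lower than preleukemia. These 5 were lost without any 1 of the 4 Evi1 libraries (highest adjusted p 0.190, 0.103, 0.207, 0.160 and 0.156 in the order given), Abcd3 against mock also without mock library 1 and Ehhadh without either mock library.

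Of 14 listed regulators of mitochondrial genes 10 were tested, and Ppara, Pparg and Ppargc1a were not. Ppargc1b, a coactivator of genes for mitochondrial oxidation, stood at 3.06 and 3.15 RPKM in mock, 1.58 and 1.33 in preleukemia, and in leukemia 0.775 and 0.612, falling stepwise without overlap. Its log2 difference from mock was -0.74 in preleukemia (limma adjusted p = 0.0162; lost without preleukemia library 1 or 2, up to 0.124) and -1.28 in leukemia (0.00192; held without each library in turn), and leukemia was lower than preleukemia, with a difference of -0.54 (0.0455; lost without any 1 of the 4 libraries compared, up to 0.221). Sirt3, the main mitochondrial deacetylase, was at 21.3 and 20.5 RPKM in mock, 21.9 and 20.1 in preleukemia, and in leukemia 32.1 and 30.6. Leukemia was above the other 4 libraries (0.56 against mock, limma adjusted p = 0.00828, and 0.56 against preleukemia, 0.0117). The call against mock was lost without leukemia library 1 or 2 (up to 0.0700) and that against preleukemia without any 1 of the 4 libraries compared (up to 0.115). Leukemia was also higher than preleukemia for Sirt5 (0.65, 0.0232; lost without any 1 of the 4 libraries compared, up to 0.167) and lower for Hif1a (-0.83, 0.00769; lost without preleukemia library 1 or 2 or leukemia library 2, up to 0.0737).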

How the data were processed

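RNA was sequenced from sorted GFP+ Lin- c-kit+ bone marrow cells in 6 libraries, 2 per group. The authors deposited 1 table of RPKM values with 38924 rows. Its unit follows from the values themselves: after multiplication by exon length 64.1% to 65.8% of values under 20 reads lay within 0.02 of a whole number of reads. CASAVA 1.8.2 and GRCm38 appear in the submitters' processing notes, without roles. The aligner and counting tool are not given there or in the labels. Positions and exon overlaps are those of GENCODE M21 (91.0% of rows matched), and promoters are RefSeq's. At the depths recovered, 3 reads on 1 kb were worth 0.139 to 0.177 RPKM, a limit for counting error only.

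RPKM + 1 was taken to log2, a minimum of 1 RPKM in 2 or more libraries left 10958 genes, and limma 3.58.1 in R 4.3.3 was fitted to all libraries with 1 mean per group and a trend in the spread (3 residual and 3.70 prior degrees of freedom). Tests were two-sided, adjusted by Benjamini-Hochberg within each comparison at 0.05, and tested on simulated data. The log2(RPKM + 1) scale understates changes of weakly expressed genes. Alternatives were other pseudocounts, filters, scalings, estimates of spread, a replicate block and each library left out. Members, lists and tests were chosen with earlier results of these data known. Values per library are given for members called in at least 1 comparison, statistics for at most 6 called members per comparison and pathway and 4 called genes per other list, each with the largest differences.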

Additional observations from a re-analysis of the deposited data

How the results depend on the processing

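All 20 calls of single enzymes kept their direction under the 16 alternatives, and 4 stayed past the threshold under each: Idh1 in preleukemia, Etfb in both leukemia comparisons and Acaa2 against mock. Signs of differences that were not called changed in 34, 11 and 19 cases over the 3 comparisons. Called TCA cycle enzymes, 3 for preleukemia against mock, were 1 with only the 4 libraries compared and 1 to 6 without 1 library. Against mock in leukemia they were 8, and 5 with no filter, 5 with no trend in the spread, 5 with array weights, 4 with only 4 libraries and 0 to 11 without 1 library. For leukemia against preleukemia they were 1, and 2 with pseudocount 0.5, 0 with no filter, 0 with TMM-like scaling, 0 with no trend, 10 with array weights, 9 with only 4 libraries and 0 to 9 without 1 library. Called fatty acid oxidation enzymes were 0, 5 and 3 in the same order. Without 1 library they were 0 to 4, 2 to 8 and 1 to 8, with array weights 3 and 8 in the leukemia comparisons, and with only 4 libraries 2 and 8. The causes were not tested. Fits without 1 library hold 2 residual degrees of freedom in place of 3, and among them counts moved both up and down. With the replicate number as a block the TCA cycle counts were 3, 8 and 3 and the fatty acid oxidation counts 0, 4 and 3. Deviations of libraries with the same number correlated over genes at 0.12, 0.01 and 0.18. No reference value stands beside these, so they cannot tell whether libraries with the same number share a batch. The main fit left the number out. Over all genes, 2140, 2809 and 2006 calls became 1355, 1698 and 1231 with a mean of at least 5 RPKM. Preleukemia against mock gave 1421 with array weights, 1374 with only 4 libraries and 520 to 3873 without 1 library, and leukemia against mock 1046 to 3848 without 1 library. Leukemia against preleukemia gave 1302 with no filter, 3786 with array weights, 3428 with only 4 libraries and 430 to 3449 without 1 library.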
